A study of Morone chrysops with 54 samples.

Results

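Livers of white bass (Morone chrysops) expressed 31 contigs whose names tie them by wording to the cell cycle or to DNA replication. A contig is an assembled transcript. The 31 were picked by phrases in their names, such as cyclin, mitotic, kinesin, kinetochore, DNA primase and DNA polymerase, among 977 named contigs that the study had listed as different from Diet 1, out of 20914 contigs in the transcriptome. The word topoisomerase was also searched and matched 0 names, and reading "DNA-binding protein, mitochondrial" as 2 separate phrases would have given 73 contigs. The lists came from the same fish that are described here. Changes relative to Diet 1 are therefore a description without a test, and tests were kept to pairs of other diets and to differences between fish within a diet. Of the 31 contigs, 18 had been listed for Diet 2, 3 for Diet 3, 3 for Diet 4, 11 for Diet 5 and 4 for Diet 6, with 6 listed for 2 or more diets. By role, 7 are regulators of the cell cycle, 9 belong to the spindle, centromere or kinetochore and 8 belong to DNA replication or repair. The other 7 carry a matching word but are known for other work, so that the set is not made of cell cycle genes throughout.

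A dividing cell first copies its DNA and then separates the copies. In the first step, MCM helicase proteins open the double helix, primase lays down short RNA primers and DNA polymerases extend them. In mitosis, B-type cyclins activate the kinase CDK1, aurora kinases and centromere proteins steer chromosome attachment, and kinesin motors build the spindle and complete the split. Most hepatocytes of a resting liver are outside the cycle, and regrowth after tissue loss brings them back into it.

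The liver RNA came from juvenile fish, about 40 g at the start, that were given 1 of 6 feeds for 60 days, with 9 fish and 1 poly(A) library per fish for each feed. Diet 2 was low in fish meal and high in soy, Diet 3 was low in fish meal with poultry meal and Diet 4 had poultry meal and no fish meal. Diet 5 held plant protein alone and Diet 6 was built on a commercial protein blend, both without fish meal. Diet 1 was the standard fish meal control, and soybean meal was part of all 6 diets. Each diet was fed in 3 tanks with 3 fish sampled per tank, and the single fish was treated as the replicate. Likeness between fish of 1 tank was thus not modelled, and p-values between diets may be too small. Estimated counts per library totalled 5964761 to 17336918 in 53 libraries and 755 in Diet 5 replicate 7, which was left out. Levels are CPM, the count scaled to a common library size after TMM normalization. Contig lengths were not used, and levels are compared between fish and not between contigs. All 31 contigs were among the 9548 contigs that passed a mean count of 5 over the 53 libraries. In bulk liver RNA, fewer cells of a type and less RNA per cell cannot be told apart.

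The libraries also carried RNA of other cells. The 7 hepatocyte markers were detected in every fish, and their summed levels had medians of 51713, 52111, 47379, 42517 and 26195 CPM with Diets 2 to 6, against 49751 CPM with Diet 1. In Diet 6 these sums were 18955 to 45271 CPM, against 39964 to 71491 CPM in Diet 1, and the part of this lower level in the Diet 6 values of the 31 contigs was not tested. The 7 markers of the exocrine pancreas, an organ that lies within or along the liver in many teleosts, had median sums of 56114, 41696, 30255, 37475 and 22454 CPM with Diets 2 to 6, against 113558 CPM with Diet 1, and ranged from 87.4 to 172721 CPM between fish. Only 1 of the exocrine marker values was 0, in a fish fed Diet 6. The 10 blood and immune markers had median sums of 78.9, 82.9, 78.6, 114 and 72.5 CPM with Diets 2 to 6, against 82.3 CPM with Diet 1. Of the 31 contigs, only centromere protein F-like followed the exocrine markers between fish, as described at the end.

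Among the 7 regulators, the kinase, the B-type cyclins and their partners had their highest estimates relative to Diet 1 in fish fed Diet 2. Their median log2 fold change relative to Diet 1 was 0.99, 0.56, 0.31, 0.22 and 0.15 in Diets 2 to 6, where the median over all tested contigs lay between -0.02 and 0.03. The count of regulators more than 1.5-fold higher than in Diet 1 was 6, 2, 1, 1 and 0 of 7. Over all contigs that share was 4.07%, 4.46%, 7.2%, 10.8% and 8.29%. The 5 comparisons share the same Diet 1 fish and the regulators had been listed for Diet 2, so these values describe the fish and were not tested. The small medians moved with single fish. In Diet 5 the median turned to -0.13 when replicate 8 of that diet was left out and was 0.09 when its replicate 5 was, and leaving out the control fish 2, 4 or 8 gave 0.12, 0.15 or 0.38. In Diet 4 it was 0.15 with replicate 5 of that diet left out and 0.19 with control fish 2 left out. In Diet 6 it was 0.07 or 0.06 with replicate 5 or 8 of that diet left out, and 0.06, 0.03 or 0.33 with control fish 1, 2 or 8 left out. In Diet 2 the median stayed between 0.79 and 1.17.

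Aurora kinase A, which matures centrosomes and builds the spindle poles, had lowest, median and highest levels of 1.94, 8.09 and 16.4 CPM with Diet 2, 1.51, 5.32 and 11.6 with Diet 3, 2.92, 4.79 and 8.97 with Diet 4, 1.1, 5.03 and 13.8 with Diet 5 and 3.03, 4.02 and 7.53 with Diet 6, against 1.5, 3.57 and 7.27 CPM with Diet 1. Cyclin-B1, an activator of CDK1 at mitotic entry, had 3.59, 28.7 and 45.8 CPM with Diet 2, 6.04, 19.2 and 32.1 with Diet 3, 6.98, 15.7 and 31.8 with Diet 4, 4.72, 11.7 and 37.1 with Diet 5 and 4.32, 15.5 and 22.4 with Diet 6, against 5.93, 8.48 and 27.3 CPM with Diet 1. Its relative, cyclin-B2-like, had 0.97, 5.97 and 12.7 CPM with Diet 2, 1.11, 4.38 and 6.94 with Diet 3, 1.92, 2.76 and 7.07 with Diet 4, 1.95, 2.76 and 9.32 with Diet 5 and 2.31, 3.02 and 5.4 with Diet 6, against 1.05, 2.63 and 6.45 CPM with Diet 1. In each of these 3 contigs the fish fed Diet 2 had the highest median, and every diet overlapped Diet 1, with the widest range of CPM inside Diet 2. The log2 fold changes relative to Diet 1 were 1.04, 0.56, 0.31, 0.44 and 0.18 (SE 0.36 to 0.37) in Diets 2 to 6 for aurora kinase A. For cyclin-B1 they were 0.81, 0.47, 0.24, -0.02 and 0.01 (SE 0.38 to 0.39). For cyclin-B2-like they were 1.08, 0.56, 0.24, 0.25 and 0.15 (SE 0.38 to 0.39). In all 3 the estimate in Diet 2 was the highest of the 5 diets.

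Cyclin-F, the substrate-binding part of a ubiquitin ligase that acts late in the cycle, had medians of 5.33, 4.56, 3.96, 2.46 and 3.2 CPM with Diets 2 to 6, against 2.17 CPM with Diet 1. Cyclin-dependent kinase inhibitor 3, a phosphatase of cyclin-dependent kinases, had medians of 3.53, 3.27, 2.29, 2.43 and 2.19 CPM with Diets 2 to 6, against 1.43 CPM with Diet 1, and log2 fold changes of 1.33, 0.89, 0.86, 0.81 and 0.44 (SE 0.42 to 0.43). Its value in Diet 2 was the highest estimate among the regulators. Cell division cycle-associated protein 3, which promotes mitotic entry, had medians of 24.9, 15.8, 15.2, 11.1 and 13.9 CPM with Diets 2 to 6, against 14.4 CPM with Diet 1. Cyclin-D1-like, which carries cells out of G1, did not follow the other regulators: its levels were 1.65, 5.92 and 9.37 CPM with Diet 2, 2.09, 3.84 and 16 with Diet 3, 1.29, 4.14 and 15.9 with Diet 4, 3.2, 7.27 and 14.1 with Diet 5 and 1.47, 3.53 and 15.1 with Diet 6, against 0.901, 3.77 and 40.1 CPM with Diet 1. The highest value of Diet 1, in replicate 7, stood alone, since the next fish of that diet had 5.28 CPM. With that fish, its log2 fold changes were -0.32, -0.43, -0.42, 0.11 and -0.53 in Diets 2 to 6, and without it 0.86, 0.76, 0.76, 1.29 and 0.65.

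**Figure D1:**
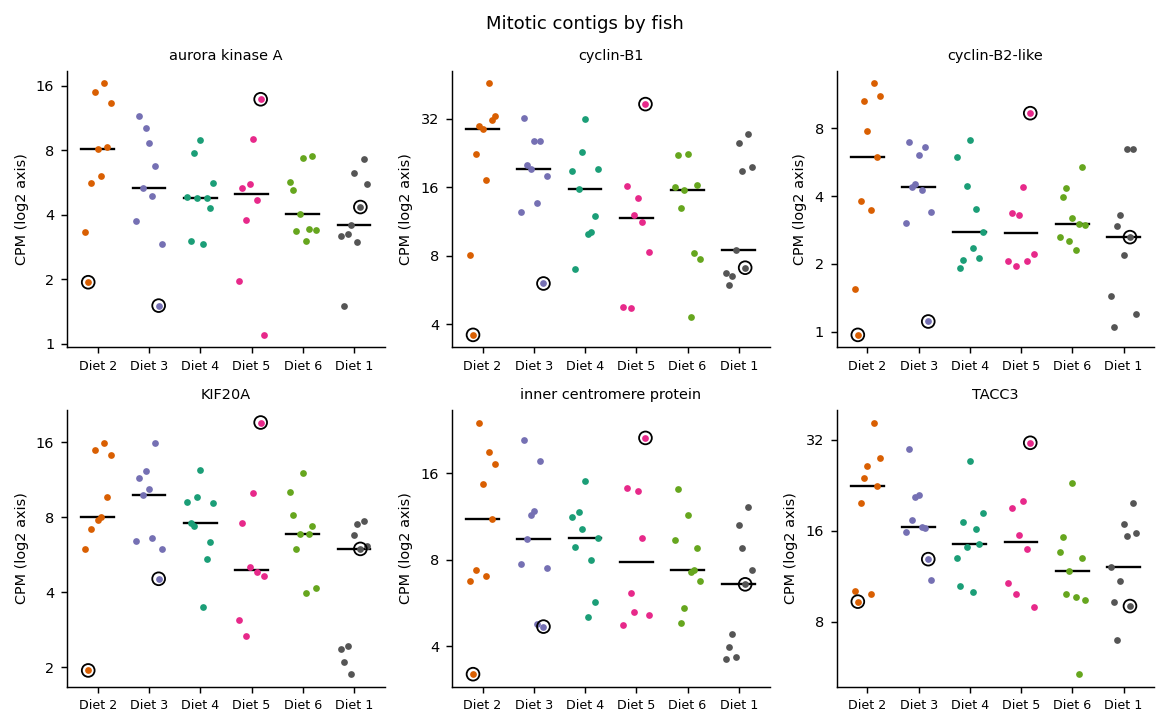
CPM per fish, on a log2 axis, of 6 mitotic contigs in Diets 2 to 6 and Diet 1. Each point is 1 fish and each bar is the diet's median; circles mark Diet 2 replicate 2, Diet 3 replicate 8, Diet 5 replicate 8 and Diet 1 replicate 7. Aurora kinase A has its highest median, 8.09 CPM, in Diet 2, and the same fish stand low or high across the panels.

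The spindle and kinetochore contigs were listed through Diet 2, as the regulators were, except mitotic interactor and substrate of PLK1, listed through Diet 6. Most of these spindle contigs resembled the regulators, a likeness that the shared listing favours and that was not tested. Their median log2 fold change relative to Diet 1 was 0.76, 0.48, 0.34, 0.33 and 0.09 in Diets 2 to 6, with 7, 3, 1, 3 and 2 of 9 members more than 1.5-fold higher and 1, 1, 1, 1 and 1 more than 1.5-fold lower. Over all contigs the higher share was 4.07%, 4.46%, 7.2%, 10.8% and 8.29%, and the lower share 6.94%, 4.02%, 5.35%, 9.66% and 6.28%. The Diet 4 count of 1 of 9 higher (11.1%) was near the share of all contigs. The 1 lower member in every diet was centromere protein F-like. The Diet 5 median was 0.12 when replicate 8 of that diet was left out and 0.57 when control fish 8 was, and the Diet 6 median lay on either side of 0 as single fish were left out (-0.05 to 0.24). With the exocrine marker mean as a covariate the medians were 0.79, 0.52, 0.35, 0.38 and 0.40. KIF20A, a kinesin of cytokinesis, had 1.94, 8.03 and 15.8 CPM with Diet 2, 4.53, 9.78 and 15.9 with Diet 3, 3.5, 7.58 and 12.4 with Diet 4, 2.67, 4.93 and 19.2 with Diet 5 and 3.96, 6.87 and 12 with Diet 6, against 1.87, 5.97 and 7.74 CPM with Diet 1. TACC3, which stabilizes spindle microtubules, had 9.31, 22.5 and 36.4 CPM with Diet 2, 11, 16.4 and 29.7 with Diet 3, 10.1, 14.4 and 27.3 with Diet 4, 8.94, 14.7 and 31.2 with Diet 5 and 5.36, 11.8 and 22.9 with Diet 6, against 6.96, 12.1 and 19.7 CPM with Diet 1. The median of both was higher in Diet 2 than in Diet 1, and the highest median of KIF20A was in Diet 3. Each diet overlapped Diet 1.

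Inner centromere protein, the scaffold that holds aurora kinase B at centromeres, had medians of 11.1, 9.44, 9.52, 7.84 and 7.39 CPM with Diets 2 to 6, against 6.58 CPM with Diet 1. Kinetochore scaffold 1, which recruits checkpoint proteins to the kinetochore, had medians of 1.84, 1.37, 1.82, 1.8 and 1.05 CPM with Diets 2 to 6, against 1.34 CPM with Diet 1, and its log2 fold change of 1.19 (SE 0.43) in Diet 2 was the largest of the group there. ASPM, a spindle pole protein known for microcephaly in humans, had medians of 7.97, 6.76, 4.78, 5.09 and 3.28 CPM with Diets 2 to 6, against 4.73 CPM with Diet 1. The other members, NUMA1 and the minus-end motor KIFC1, had log2 fold changes of 0.95, 0.77, 0.32, 0.21 and 0.09 (NUMA1) and of 0.76, 0.52, 0.34, 0.26 and 0.34 (KIFC1) in Diets 2 to 6. Across these 5 contigs the estimate in Diet 2 was the highest of the 5 diets.

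Mitotic interactor and substrate of PLK1, which anchors spindle microtubules at the cell cortex and also binds actin, had a pattern of its own. It had been listed through Diet 6 alone. Its levels were 1.08, 3.53 and 6.5 CPM with Diet 2, 1.09, 2.86 and 17.7 with Diet 3, 0.819, 4.32 and 10.2 with Diet 4, 3.37, 7.81 and 23 with Diet 5 and 4.25, 7.2 and 14.2 with Diet 6, against 1.64, 3.44 and 8.03 CPM with Diet 1. Its medians were highest in Diets 5 and 6, whose fish overlapped those of Diet 1. The log2 fold changes relative to Diet 1 were 0.00, 0.26, 0.45, 1.34 and 1.09 (SE 0.41 to 0.43).

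All regulators had been listed through Diet 2, and all replication contigs but MCM6 through Diet 5, so different diet orders were favoured in advance. The group median of the 8 replication and repair contigs differed from the medians of the mitotic groups in diet order, without a test. The single contigs shared no 1 order: the highest estimate was in Diet 2 for WDHD1 (0.72), in Diet 4 for primase (0.66) and in Diet 6 for MCM6 (0.82). The size of the changes depended on 1 control fish for the replication contigs other than the DNA polymerases, whose estimates moved less without it. The median log2 fold change of the 8 relative to Diet 1 was 0.33, 0.23, 0.44, 0.62 and 0.72 in Diets 2 to 6. More than 1.5-fold higher were 1, 0, 4, 5 and 5 of 8 members. Without Diet 1 replicate 7 the medians were 0.88, 1.03, 1.16, 1.35 and 1.46, and the counts were 4, 5, 5, 7 and 6 of 8. The shares of all contigs more than 1.5-fold higher were 4.07%, 4.46%, 7.2%, 10.8% and 8.29% with all fish and 6.44%, 6.87%, 10.2%, 13.6% and 11.5% without that fish. Without the same fish the medians of the regulators were 1.01, 0.58, 0.33, 0.22 and 0.13. The exocrine marker mean, as a covariate added after the data had been seen, gave medians of 0.43, 0.40, 0.70, 0.75 and 0.96 for the replication contigs, and of 0.99, 0.58, 0.31, 0.28 and 0.22 for the regulators.

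MCM6, a subunit of the replicative helicase, had lowest, median and highest levels of 4.53, 11.8 and 43.3 CPM with Diet 2, 5.34, 12 and 34.5 with Diet 3, 6.21, 16.7 and 26.8 with Diet 4, 6.74, 11 and 28.7 with Diet 5 and 4.12, 15.2 and 54.4 with Diet 6, against 2.63, 5.86 and 58.5 CPM with Diet 1. Its partner MCM5 had 4.65, 9.23 and 25.1 CPM with Diet 2, 4.19, 10.2 and 25.6 with Diet 3, 7.38, 17 and 24.1 with Diet 4, 5.13, 9.79 and 21.6 with Diet 5 and 4.52, 13 and 41.9 with Diet 6, against 1.43, 4.6 and 46.1 CPM with Diet 1. For the DNA primase small subunit, the catalytic part of primase, the levels were 1.31, 2.88 and 7.2 CPM with Diet 2, 1.66, 3.42 and 5.15 with Diet 3, 1.43, 4.52 and 7.63 with Diet 4, 2.2, 3.83 and 7.16 with Diet 5 and 1.37, 2.05 and 11.7 with Diet 6, against 0.483, 1.6 and 14.2 CPM with Diet 1. In all 3 the highest value of Diet 1 was replicate 7, and the next fish of that diet had only 8.03 CPM of MCM6, 8.39 CPM of MCM5 and 1.88 CPM of primase. WDHD1, which couples the helicase to DNA polymerase alpha, had 1.43, 3.94 and 11.2 CPM with Diet 2, 1.59, 4.12 and 7.3 with Diet 3, 1.83, 4.68 and 7.22 with Diet 4, 0.612, 4.37 and 9.04 with Diet 5 and 1.21, 3.35 and 13.3 with Diet 6, against 0.751, 1.88 and 14.3 CPM with Diet 1. The mitochondrial single-stranded DNA-binding protein, which coats mitochondrial DNA during its replication, had 7.39, 11.6 and 20.2 CPM with Diet 2, 8.09, 14.5 and 26 with Diet 3, 10.8, 12.5 and 28.9 with Diet 4, 13.4, 23 and 25.6 with Diet 5 and 10.1, 16 and 58.9 with Diet 6, against 5.55, 8.95 and 49.7 CPM with Diet 1. In this last contig the lowest fish fed Diet 5, at 13.4 CPM, was above every Diet 1 fish but replicate 7, the next having 10.4 CPM. It had been listed through Diet 5 among others, which favours such a gap, and the share over all contigs was not computed.

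The log2 fold changes of MCM6 relative to Diet 1 were 0.41, 0.32, 0.61, 0.28 and 0.82 (SE 0.49 to 0.51) in Diets 2 to 6 with all fish, and 1.47, 1.38, 1.67, 1.34 and 1.89 without Diet 1 replicate 7. Those of primase were 0.52, 0.24, 0.66, 0.60 and 0.43 (SE 0.44 to 0.45) with all fish and 1.61, 1.33, 1.74, 1.69 and 1.51 without it. For WDHD1 they were 0.72, 0.47, 0.59, 0.63 and 0.68 (SE 0.48 to 0.50) with all fish and 1.59, 1.34, 1.45, 1.5 and 1.55 without it. Each of these estimates was higher when the fish was left out. For the mitochondrial binding protein the estimate was -0.11, 0.21, 0.25, 0.73 and 0.79 (SE 0.31 to 0.32) with all fish and 0.51, 0.84, 0.87, 1.36 and 1.41 without it, and the sign turned in Diet 2.

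The 3 polymerase contigs stood furthest from Diet 1 in Diet 5, through which all 3 had been listed. DNA polymerase delta subunit 4, a small accessory subunit, had 16.5, 20.3 and 26.1 CPM with Diet 2, 13.1, 17.3 and 21 with Diet 3, 13.4, 19.3 and 26.3 with Diet 4, 22.7, 29.6 and 33.1 with Diet 5 and 7.52, 18.9 and 29.7 with Diet 6, against 12.9, 17.6 and 32.5 CPM with Diet 1. DNA polymerase beta, which fills gaps in base excision repair, had 3.36, 3.87 and 5 CPM with Diet 2, 1.12, 3.15 and 3.75 with Diet 3, 2.67, 3.28 and 6.01 with Diet 4, 2.99, 7.26 and 10.2 with Diet 5 and 1.44, 4.33 and 10 with Diet 6, against 0.942, 3.27 and 4.96 CPM with Diet 1. With all fish, its log2 fold change of 1.27 (SE 0.27) in Diet 5 was the largest of the replication group. Without Diet 1 replicate 7 it was 1.40 and no longer the largest, since primase had 1.69 in Diet 5. The catalytic subunit of DNA polymerase zeta, which copies past damaged bases, had medians of 17.1, 17, 15.2, 11.7 and 17 CPM with Diets 2 to 6, against 17.4 CPM with Diet 1, and a log2 fold change of -0.56 (SE 0.13) in Diet 5. The lowest fish fed Diet 5 had 22.7 CPM of delta subunit 4, above every Diet 1 fish but replicate 7, whose value was 32.5 CPM. The listing through Diet 5 favours such a gap, and the share of all contigs with one was not computed.

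**Figure D2:**
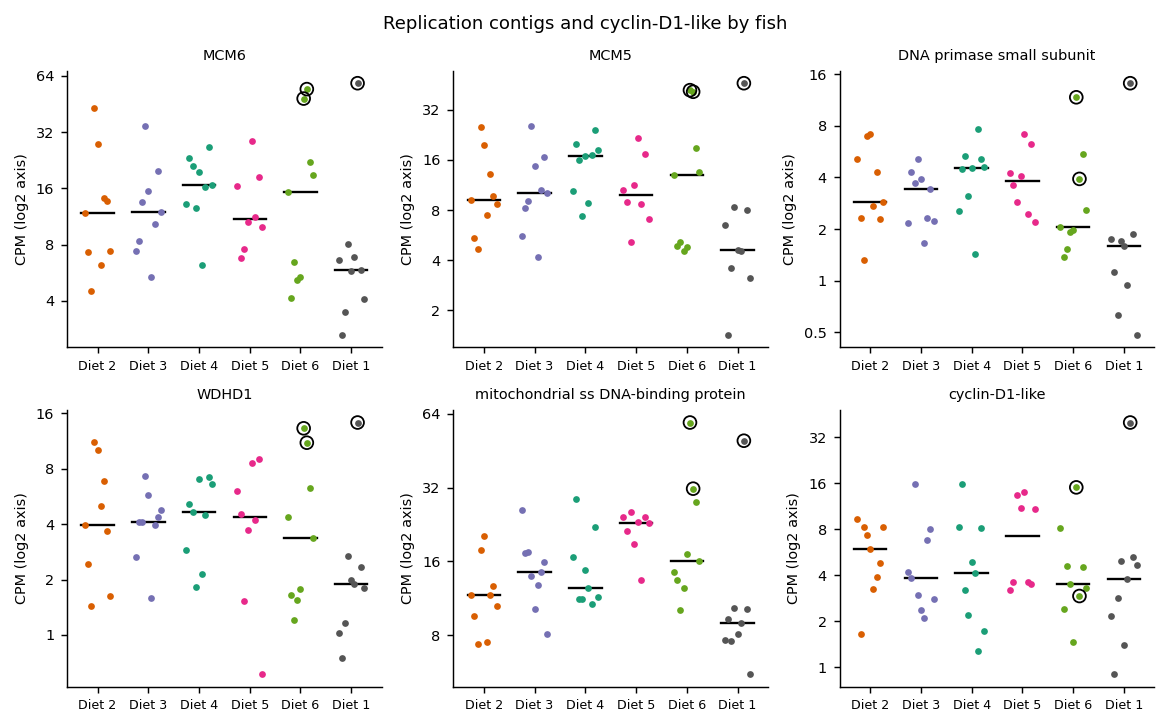
CPM per fish, on a log2 axis, of 5 replication contigs and cyclin-D1-like in Diets 2 to 6 and Diet 1. Each point is 1 fish, each bar is the diet's median, and circles mark Diet 6 replicates 6 and 7 and Diet 1 replicate 7. Diet 1 replicate 7 is far above the other Diet 1 fish in all 6 panels, with 58.5 CPM of MCM6 where the next has 8.03 CPM.

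Several of the fish that stood out differed between the mitotic and the replication contigs, while others stood out in both. Diet 1 replicate 7 had the highest level of its diet in 7 of 8 replication contigs, but in 1 of 7 regulators and 1 of 9 spindle contigs. The mean log2 CPM of its replication contigs was 2.10 above that of the median fish of Diet 1. By the mean of the regulators, its high cyclin-D1-like included, it was itself the median fish (0.00). Diet 6 replicate 6 had the highest level of its diet in 6 of 8 replication contigs and the lowest in 5 of 7 regulators. In contrast, Diet 5 replicate 8 was highest in 5 of 7 regulators and 7 of 9 spindle contigs, and in 2 of 8 replication contigs. Diet 1 replicate 8, Diet 3 replicate 2 and Diet 4 replicate 5 were each highest in 5 of 7 regulators and 5 of 9 spindle contigs, and in 0, 1 and 0 replication contigs. At the low end, Diet 2 replicate 2 was lowest in 7 of 7 regulators and 7 of 9 spindle contigs but in 0 of 8 replication contigs, and Diet 3 replicate 8 in 6 of 7, 6 of 9 and 0 of 8. These 6 fish, from Diet 5 replicate 8 on, carried the tag L2L4, 1 of 3 L tags in the file headers whose meaning is not stated. Other mitotic extremes did not: Diet 2 replicate 7, highest in 5 of 7 regulators and 4 of 9 spindle contigs, carried L1L8, and Diet 4 replicate 6, lowest in 7 of 9 spindle contigs, carried L3L5, as did Diet 6 replicate 6. Some fish were extreme in both kinds. Diet 1 replicate 2 was lowest in 4 of 7 regulators and 3 of 8 replication contigs. Diet 4 replicate 6 was also lowest in 2 of 8 replication contigs. In Diet 5 replicate 5 the means of regulators, spindle and replication contigs lay 0.95, 0.94 and 0.70 log2 units above the diet's medians. In Diet 5 replicate 8 they lay 1.31, 1.14 and 0.50 above.

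The 7 contigs that matched by wording alone did not form 1 pattern. Their median log2 fold change relative to Diet 1 was -0.14, -0.05, 0.02, 0.76 and -0.46 in Diets 2 to 6. Trafficking kinesin-binding protein 1-like, an adaptor that links mitochondria to motors, had 8.63, 22.8 and 45.5 CPM with Diet 2, 7.9, 11.4 and 14 with Diet 3, 10.8, 13.8 and 24.3 with Diet 4, 14.2, 43.7 and 59 with Diet 5 and 4.1, 8.81 and 11.1 with Diet 6, against 6.28, 11.4 and 22.3 CPM with Diet 1. Its fish fed Diet 5 were all above the Diet 1 fish other than replicate 7, and its log2 fold changes were 0.98, -0.05, 0.42, 1.78 and -0.46 (SE 0.24 to 0.25). It had been listed through Diets 2 and 5, which favours such a gap, and the share over all contigs was not computed. KIF3C, a motor of intracellular transport, had 4.27, 14.1 and 21.8 CPM with Diet 2, 2.42, 6.18 and 15 with Diet 3, 1.93, 5.81 and 11.6 with Diet 4, 8.05, 10.8 and 21.6 with Diet 5 and 2.8, 4.75 and 8.07 with Diet 6, against 3.26, 5.81 and 13.5 CPM with Diet 1, with the 2 highest medians in Diets 2 and 5. HMG box-containing protein 4-like, a chromatin protein, had medians of 9.61, 9.83, 7.17, 6.99 and 5.67 CPM with Diets 2 to 6, against 11.1 CPM with Diet 1, the lowest in Diet 6. The remaining 4, KIF13A, kinesin light chain 1, the small GTPase CDC42 homolog and a transposon polymerase, had log2 fold changes between -0.74 and 1.68, both extremes in Diet 6 (kinesin light chain 1 and KIF13A).

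**Figure D3:**
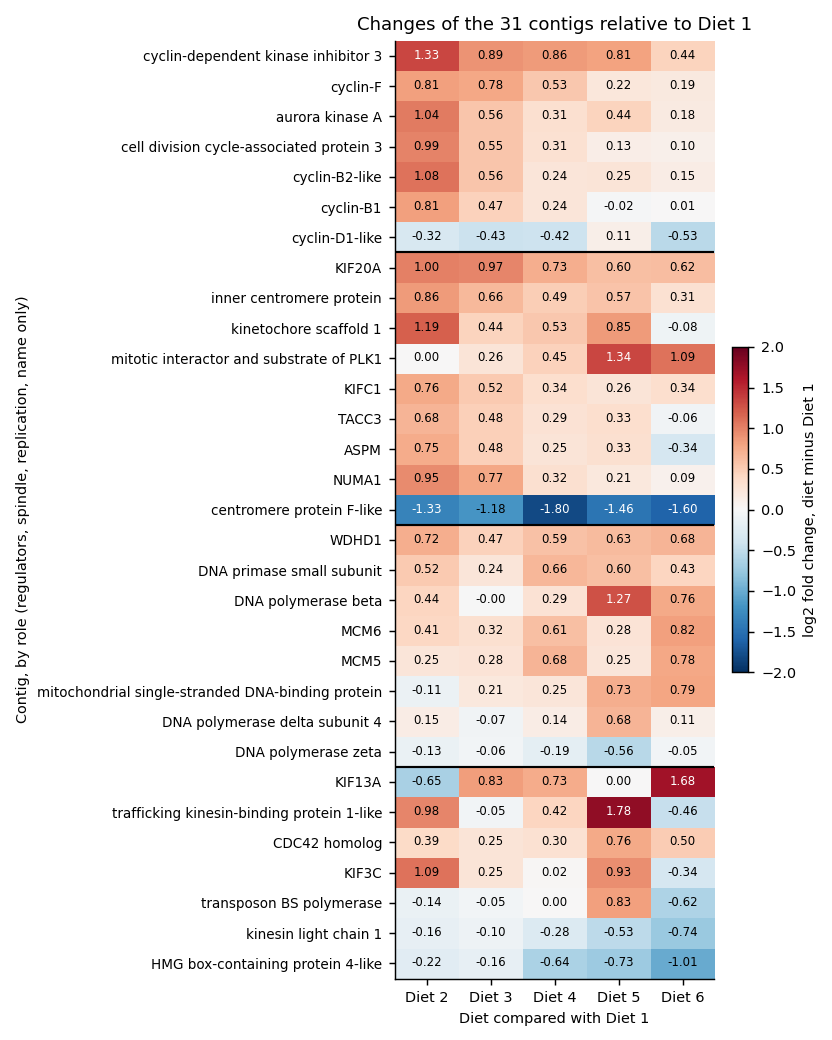
Log2 fold changes of the 31 contigs in Diets 2 to 6 minus Diet 1, from 1 fit over 53 fish, grouped by role; colour and printed number give the same value. Each regulator and spindle contig has its highest value in the Diet 2 column (aurora kinase A 1.04) except cyclin-D1-like (0.11) and mitotic interactor and substrate of PLK1 (1.34), highest in Diet 5, and centromere protein F-like, below 0 in every column. DNA polymerase beta (1.27) is highest in Diet 5 too.

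The other genes of the pathway were 20 contigs from a list of the study's named contigs. Those of cell division had a median near that of the regulators in Diet 2 and higher ones in Diets 3 to 6. The regulators had 0.99, 0.56, 0.31, 0.22 and 0.15 in Diets 2 to 6. The 15 other division contigs had median log2 fold changes of 1.03, 0.71, 0.55, 0.60 and 0.50 in Diets 2 to 6, with 13, 11, 7, 8 and 5 of 15 more than 1.5-fold higher (4.07%, 4.46%, 7.2%, 10.8% and 8.29% of all contigs). FOXM1, a transcription factor of mitotic genes, had the highest value in Diet 5 at 1.3, and CKAP2-like the lowest there at -1.84. The 5 other DNA synthesis contigs had medians of 0.59, 0.45, 0.40, 0.60 and 0.28, and of 0.86, 0.95, 0.65, 1.53 and 0.55 without Diet 1 replicate 7. Dihydrofolate reductase-like, which feeds nucleotide synthesis, had the lowest value of these in every diet, -1.46 in Diet 4. These contigs too come from lists made on these fish.

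Pairs of diets that had not chosen a contig gave a further comparison. In the same fish, neither diet of such a pair had been listed as different from Diet 1 for that contig. These tests therefore lean towards no difference. A pair counted for a contig only where neither of its diets belonged to a comparison through which that contig had been listed, which left 164 tests. By the quasi-likelihood test of edgeR, 0 of the 164 passed an adjusted p of 0.05 with more than 1.5-fold, where 1.63% of the 95480 tests over all contigs and all 10 pairs of Diets 2 to 6 passed. At an unadjusted p under 0.05, 19 of the 164 passed (11.6%), against 13.4% over all contigs. DESeq2 called 2 of them, where it called 2.86% of the 73634 tests over all contigs to which it gave an adjusted p. Some of the 164, such as those of KIF13A, had none, so the 2 shares do not rest on like counts of tests. The share of the set was near that of all contigs, though members entered different pairs.

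The nearest were contigs already described. Trafficking kinesin-binding protein 1-like was at 4.1 to 11.1 CPM in Diet 6 and at 10.8 to 24.3 CPM in Diet 4, a log2 fold change of -0.88 (SE 0.24, edgeR adjusted p = 0.0629), and DESeq2 gave an adjusted p of 0.0155. Mitotic interactor and substrate of PLK1 was at 3.37 to 23 CPM in Diet 5 and at 1.08 to 6.5 CPM in Diet 2, with 1.33 (SE 0.43, edgeR adjusted p = 0.0749) and a DESeq2 adjusted p of 0.0331. For both contigs the 2 diets overlapped. HMG box-containing protein 4-like gave -0.57 (SE 0.20, edgeR adjusted p = 0.0748) for Diet 5 relative to Diet 3. The mitochondrial binding protein gave 0.90 (SE 0.31, edgeR adjusted p = 0.0933) for Diet 6 relative to Diet 2. Leaving out 1 fish at a time, 46 of 53 fish left 0 calls and 7 fish gave 1 or 2. Over all contigs, with no fish left out, 2.52% were called for Diet 6 relative to Diet 2, 0.44% for Diet 6 relative to Diet 4, 1.28% for Diet 5 relative to Diet 2 and 4.44% for Diet 5 relative to Diet 3. Without Diet 1 replicate 7 the mitochondrial binding protein was called for Diet 6 relative to Diet 2 (edgeR adjusted p = 0.0207), and trafficking kinesin-binding protein 1-like for Diet 6 relative to Diet 4 (0.0461). That fish is in neither pair, and the log2 fold changes stayed at 0.90 and -0.88. All diets share 1 fit, so a fish outside a pair can still change its p-value. Trafficking kinesin-binding protein 1-like was also called in that pair without Diet 2 replicate 4 (0.0476), Diet 4 replicate 4 (0.0493) or Diet 5 replicate 9 (0.0429). Of these 3 fish only the Diet 4 fish is in the pair. HMG box-containing protein 4-like was called for Diet 5 relative to Diet 3 without Diet 3 replicate 4 (0.0486) or Diet 5 replicate 6 (0.0322). Without Diet 3 replicate 7, mitotic interactor and substrate of PLK1 was called for Diet 5 relative to Diet 2 (0.0451), a pair outside Diet 3, and relative to Diet 3 (0.00406). The contigs of the mitotic core, aurora kinase A and the B-type cyclins among them, were not called in any pair of Diets 3 to 6. Diet 2, for which they had been listed, was outside their pairs. Of the other genes of the pathway, 0 of 111 such tests passed in edgeR and 2 had an unadjusted p under 0.05.

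The file headers also gave 18 T tags, 3 per diet with 3 fish each, whose meaning is not stated. Within diets, 0 of the 31 contigs differed between T tags by edgeR (0.262% of all contigs did, and 6 of 31 had an unadjusted p under 0.05, against 7.55%). DESeq2 called 1, mitotic interactor and substrate of PLK1 (adjusted p = 0.0471). Between the 3 L tags, 0 of 31 were called by edgeR against 4.27% of all contigs, and 10 of 31 had an unadjusted p under 0.05, against 22.6%.

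Between fish of the same diet, most mitotic contigs varied together. The slopes do not use the differences between diets by which the contigs had been listed, although the spread between fish did enter the tests behind those lists. With diet in the model, 58 of 9547 contigs (0.608%) had a slope above 0 on the log2 CPM of aurora kinase A at an edgeR adjusted p under 0.05, and 0 had one below 0. These 58 held 12 of the 30 other contigs of the set. They were 5 of 6 regulators and 7 of 9 spindle contigs, against 0 of 8 replication contigs and 0 of 7 matched by wording alone.

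The slopes, in log2 units per log2 unit of aurora kinase A, were 0.83 (SE 0.09) for cyclin-B1, 0.76 for cyclin-B2-like and 0.63 for cyclin-F. The other following regulators were cyclin-dependent kinase inhibitor 3 at 0.82 and cell division cycle-associated protein 3 at 0.81. NUMA1, which gathers microtubules at the spindle poles, had the steepest slope of the set, 0.86 (SE 0.08) with an edgeR adjusted p of 6.60e-12. KIFC1 followed at 0.80, inner centromere protein at 0.70, KIF20A at 0.69, kinetochore scaffold 1 at 0.58, TACC3 at 0.54 and ASPM at 0.44. Cyclin-D1-like (slope -0.12 (SE 0.21)), mitotic interactor and substrate of PLK1 (-0.16 (SE 0.15)) and centromere protein F-like (0.01 (SE 0.38)) did not pass. With the L tag as a covariate 11 members passed (0.513% of all contigs), ASPM being lost. Of the other genes of the pathway, 11 of 15 division contigs and 1 of 5 DNA synthesis contigs followed, among them PLK1 at 0.80 and RPA1-like at 0.66. None of the 24 marker contigs of the exocrine pancreas, blood and immune cells or hepatocytes followed aurora kinase A.

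Within the set, MCM6 had other followers. More contigs passed with it: 753 of 9547 (7.89%) had a slope above 0 and 673 (7.05%) one below 0. Without Diet 1 replicate 7, 365 contigs (3.82%) had a slope above 0. Of the set, 6 members had a slope above 0, of which 4 were replication contigs. They were MCM5 at 0.89 (SE 0.04), WDHD1 at 0.86 (SE 0.07), primase at 0.75 (SE 0.06) and the mitochondrial binding protein at 0.44 (SE 0.06). The other 2 were cyclin-D1-like at 0.57 and trafficking kinesin-binding protein 1-like at 0.18, and both were lost without Diet 1 replicate 7. DNA polymerase zeta (-0.11) and kinesin light chain 1 (-0.18) had slopes below 0 that passed, and these calls were lost without that fish as well. With the size factors of DESeq2 6 members passed above 0 (9.1% of all contigs), with the L tag as a covariate 6 (8.77%), with the exocrine marker mean 6 (6.4%) and with no filter on low counts 5 (4.49%). None of the 9 spindle contigs followed MCM6. Of the other genes of the pathway, tonsoku-like at 0.81, deoxycytidine kinase at 0.49 and RRM2 at 0.38 followed, the last a subunit of ribonucleotide reductase, together with 3 of 15 division contigs.

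Between the 58 followers of aurora kinase A and the 753 of MCM6, 16 contigs were shared, 27.6% of the first list and 2.12% of the second. Over all contigs 7.89% followed MCM6 and 0.608% aurora kinase A, so the 2 lists shared more than these shares. Of the 16, 0 were members, but with 12 and 6 members on the lists this is a small count and was not tested. FOXM1 and ERCC-6-like were in both lists. To compare the slopes directly, aurora kinase A and MCM6 were put in 1 fit and the difference of the slopes was tested, a step added after the data had been seen. The slope on aurora kinase A was the larger in 11 members (3.33% of all contigs passed in that direction), which were the 12 followers without kinetochore scaffold 1 (edgeR adjusted p = 0.357). For cyclin-B1 the difference was 1.08 (SE 0.12) and for TACC3 0.64 (SE 0.08). The slope on MCM6 was the larger in 5 members (3.37% of all contigs), namely MCM5, WDHD1, primase, the mitochondrial binding protein and cyclin-D1-like. For MCM5 the difference was -0.77 (SE 0.07) and for cyclin-D1-like -0.78 (SE 0.23). Without Diet 1 replicate 7 the same 11 members and 4 of the 5 passed, where 1.7% and 1.85% of all contigs did, and cyclin-D1-like was lost (edgeR adjusted p = 0.234).

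**Figure D4:**
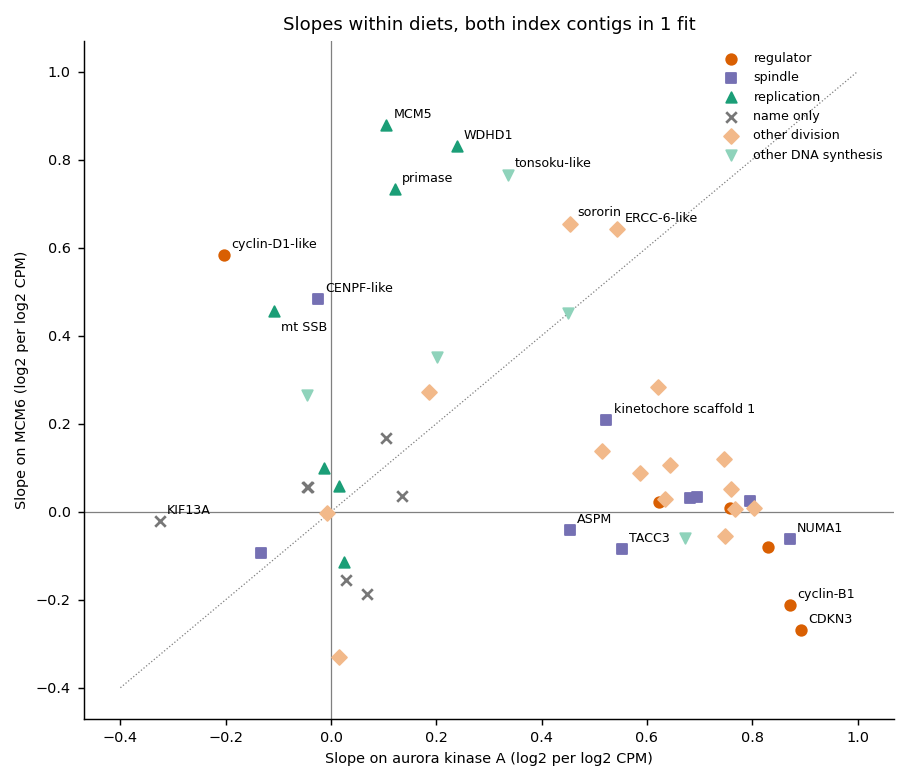
Slopes within diets on aurora kinase A (horizontal axis) and on MCM6 (vertical axis), in log2 units per log2 CPM and from 1 fit over 53 fish, for 29 contigs of the set and the 20 other genes of the pathway; symbols give roles and the dotted line marks equal slopes. Mitotic contigs such as cyclin-B1 (0.87 and -0.21) lie at the lower right, and MCM5 (0.10 and 0.88), WDHD1 and primase at the upper left.

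The same variation within diets was also measured by 8 correlations across the 53 fish with each diet's mean taken out. They were tested by 100000 permutations within diets and adjusted over the 8, and are not separate evidence from the slopes. Aurora kinase A correlated with cyclin-B1 at Pearson's r = 0.81 and Spearman's rho = 0.81. For KIF20A, r was 0.79 and rho 0.80. In both pairs the permutation p of r was 1e-05, the smallest these permutations can give, or 1.33e-05 adjusted. They held without the 2 fish farthest from the median of aurora kinase A (r = 0.81 and 0.79). Within the L tags the first was 0.85 in L1L8, 0.94 in L2L4 and 0.30 in L3L5 (permutation adjusted p = 0.394), and the second was 0.75 in L1L8, 0.92 in L2L4 and 0.37 in L3L5 (permutation adjusted p = 0.33). The relations thus passed within L1L8 and L2L4 but not within L3L5, and the difference between tags was not tested. Aurora kinase A and MCM6 gave r = 0.18 and rho = 0.21 (permutation adjusted p = 0.214 and 0.166), and within the L tags r was 0.29 in L1L8, 0.29 in L2L4 and 0.17 in L3L5. With cyclin-D1-like, aurora kinase A gave r = -0.01 and rho = -0.03 (permutation adjusted p = 0.959 and 0.852), and r was 0.13 in L1L8, 0.09 in L2L4 and -0.04 in L3L5.

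MCM5 and MCM6, subunits of 1 helicase, had the closest relation of the 8, with r = 0.95 and rho = 0.93, and 0.97 in L1L8, 0.93 in L2L4 and 0.95 in L3L5. Primase correlated with MCM6 at r = 0.84 and rho = 0.79, and with WDHD1 at r = 0.79 and rho = 0.78. Within the L tags r was 0.83 in L1L8, 0.85 in L2L4 and 0.91 in L3L5 with MCM6, and 0.83 in L1L8, 0.92 in L2L4 and 0.74 in L3L5 with WDHD1. The 3 relations had a permutation adjusted p of 1.33e-05 for r. Without the 2 fish farthest from the median of the first contig r was 0.94, 0.75 and 0.72. Primase and the mitochondrial binding protein gave r = 0.72 and rho = 0.55 (permutation adjusted p = 1.33e-05 and 1.20e-04). That value leaned on few fish: r was 0.49 without the 2 farthest and 0.60 without Diet 1 replicate 7. Within the L tags it was 0.68 in L1L8, 0.69 in L2L4 and 0.72 in L3L5, and it did not pass in L1L8 (permutation adjusted p = 0.162). Over all pairs of contigs, as a description, the median r was 0.70 among regulators, 0.63 between regulators and spindle contigs and 0.54 among spindle contigs. It was 0.21 among the 8 replication contigs, where 11 of 28 pairs were above 0.5, and 0.05 between regulators and replication contigs.

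Centromere protein F-like was set apart from the rest. Human centromere protein F is a large coiled-coil protein of the kinetochore in late G2 and mitosis. The contig here had 3.1, 29.7 and 89.3 CPM with Diet 2, 0.159, 45 and 89.6 with Diet 3, 0, 12.6 and 108 with Diet 4, 5.37, 27.2 and 59.3 with Diet 5 and 0, 17.2 and 113 with Diet 6, against 7.51, 75.5 and 208 CPM with Diet 1. It was listed at 0 in Diet 4 replicate 6 and Diet 6 replicate 9. Its medians were lower in all 5 test diets than in Diet 1, and the fish overlapped in each. The log2 fold changes were -1.33, -1.18, -1.80, -1.46 and -1.60 (SE 0.80 to 0.84) in Diets 2 to 6.

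Within diets, this contig followed the mean log2 CPM of the 7 exocrine pancreas markers with a slope of 1.07 (SE 0.07, edgeR adjusted p = 1.16e-17), where 1.52% of all contigs had a slope above 0 and 0.409% one below 0. It was the only member to do so, in a test added after the data had been seen. The 2 fish at 0 had exocrine marker sums of 218 and 173 CPM, among the lowest of all. With the exocrine mean as a covariate its log2 fold changes relative to Diet 1 were -0.18, 0.16, 0.19, 0.38 and 0.43 (SE 0.34 to 0.39). None of the contigs that followed aurora kinase A did so. With the same covariate the estimates for aurora kinase A were 1.06, 0.59, 0.38, 0.50 and 0.30, and those for MCM6 were 0.57, 0.59, 1.00, 0.52 and 1.22. None of the 31 contigs followed the mean of the blood and immune markers, where 1.57% of all contigs had a slope above 0 and 0.252% one below 0. KIF3C was the only member to follow the mean of the hepatocyte markers, with a slope of 1.08 (SE 0.27, edgeR adjusted p = 0.0142), where 2.03% of all contigs had a slope above 0 and 0.776% one below 0.

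**Figure D5:**
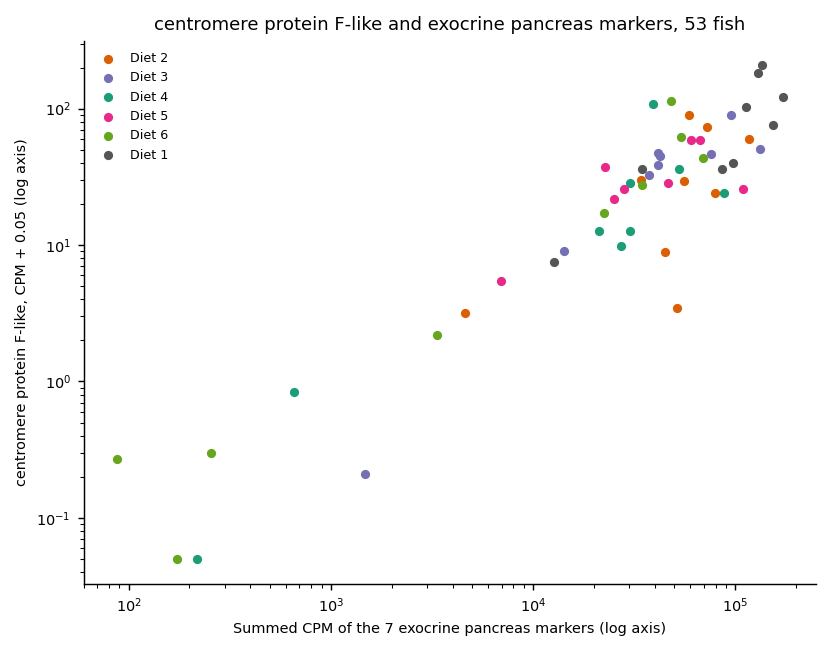
CPM of centromere protein F-like plus 0.05 against the summed CPM of the 7 exocrine pancreas markers in 53 fish, both on log10 axes, coloured by diet. The 2 fish at 0 CPM lie at exocrine sums of 218 CPM (Diet 4) and 173 CPM (Diet 6), and most Diet 1 fish lie at the upper right, with a median of 75.5 CPM.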

How the data were processed

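Liver RNA libraries of 54 white bass were described by the estimated counts the authors deposited. The authors' processing notes name Trim Galore 0.6.5, cutadapt 2.7, Bowtie2 2.3.4.1, eXpress 1.5.1 and DESeq2 1.24.0. The deposited values are effective counts of eXpress on 20914 contigs, which that program corrects for fragment length, given in whole numbers without scaling between libraries. Reads shared by similar contigs are divided by that model, so close relatives such as B-type cyclins may exchange counts.

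Here, 53 libraries were fitted in R 4.3.3 with edgeR 4.0.16 (TMM, quasi-likelihood F-test, diet as factor), with Diet 5 replicate 7 left out for its 755 counts. Contigs needed a mean count of 5, and calls an adjusted p (Benjamini-Hochberg over all contigs tested) under 0.05 and more than 1.5-fold. The SE is the log2 fold change over the square root of F, and log2 CPM has a prior count of 0.5. Slopes were tested by the same tool with diet as a covariate. The fits were tested on simulated data.

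The set, the lists of 20 pathway contigs and of markers and the tests were chosen with earlier results of these data known. Values per diet are given for contigs listed for 2 or more diets and for those in the study's cell cycle and replication lists. They are also given for a few contigs fixed by name and for the largest rise and fall of each role group relative to Diet 1. The last were picked on these values. Cell division cycle-associated protein 3, KIFC1, NUMA1 and the 4 last contigs matched by wording were named after their values were seen. Alternatives were DESeq2 1.42.0, its size factors, limma 3.58.1, other filters, replicate block, L tag, summed T tags and leaving out each fish. The joint slopes, the marker slopes and the exocrine covariate were added after the data had been seen. Sequences were not used here.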

Additional observations from a re-analysis of the deposited data

Results flagged for a closer look

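For the 24 contigs of the set chosen by a naming rule, the highest and the lowest fish of each diet were compared with the next one. The measure was Dixon's criterion on log2 CPM, the gap divided by the whole range. Of 144 groups of a contig and a diet, 17 (11.8%) held a fish beyond the critical value, where chance gives about 1 in 20. Several marks come from 1 fish in contigs that vary together, so the 17 are not independent.

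Diet 1 replicate 7 was far above the other 8 fish of its diet in 6 contigs. It had 58.5 CPM of MCM6, 46.1 CPM of MCM5, 14.2 CPM of the DNA primase small subunit and 14.3 CPM of WDHD1. Its mitochondrial single-stranded DNA-binding protein was at 49.7 CPM and its cyclin-D1-like at 40.1 CPM. In the regulators other than cyclin-D1-like this fish did not stand apart.

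Single low fish stood apart in the mitotic contigs. In Diet 2 replicate 2, cyclin-dependent kinase inhibitor 3 was at 0.388 CPM, ASPM at 1.84 CPM and KIF20A at 1.94 CPM. Diet 3 replicate 8 had 1.11 CPM of cyclin-B2-like. Mitotic interactor and substrate of PLK1 was at 1.08 CPM in Diet 2 replicate 6. Centromere protein F-like was at 0.159 CPM in Diet 3 replicate 8, whose exocrine marker sum of 1473 CPM was the lowest of its diet, and at 5.37 CPM in Diet 5 replicate 8, where that sum, 6922 CPM, was also the lowest of its diet.

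Low fish were also found in the replication and repair contigs. Diet 6 replicate 7 had 7.52 CPM of DNA polymerase delta subunit 4 and 1.44 CPM of DNA polymerase beta, while its MCM6, at 54.4 CPM, was the highest of its diet. The mitochondrial binding protein was at 13.4 CPM in Diet 5 replicate 6, and DNA polymerase zeta at 10.1 CPM in Diet 2 replicate 5.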

How the results depend on the processing

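The count of calls in pairs of diets that had not chosen the contig was 0 of 164. It was 12 at an unadjusted p with the fold threshold, a rule whose share over all contigs was not computed. At an unadjusted p under 0.05 without the fold threshold, 11.6% of the 164 passed in edgeR, against 13.4% over all contigs. The count was 2 with DESeq2 and 0 to 2 when 1 fish was left out. Size factors of DESeq2, other filters on low counts, the fish of the 2 diets alone, Diet 5 replicate 7 kept, the L tag as a covariate and counts summed per T tag left it at 0. The replicate block also gave 0 calls. The labels do not say that equal numbers share a tank or a day, and same-number pairs correlated at -0.35 to 0.49 (median 0.07, against -0.01 for other numbers), with 57 of 130 above 0.1, so the fish were not treated as paired. The number does fix the L tag in every diet, and 14 of 53 libraries correlated best with their own number. Same-number fish were thus somewhat more alike than others, and what they share was not tested. The T tag test called 1 contig with the likelihood ratio test of DESeq2 in place of 0. The median changes of the replication contigs relative to Diet 1 depended on Diet 1 replicate 7: leaving out each fish in turn gave 0.0917 to 0.878 in Diet 2, 0.0198 to 1.03 in Diet 3, 0.316 to 1.16 in Diet 4, 0.438 to 1.35 in Diet 5 and 0.393 to 1.46 in Diet 6, each upper end being without that fish. The medians of the regulators ranged over 0.789 to 1.17, 0.396 to 0.775, 0.15 to 0.45, -0.132 to 0.375 and 0.0319 to 0.33 in Diets 2 to 6, and those of the spindle contigs over 0.645 to 0.988, 0.383 to 0.644, 0.228 to 0.47, 0.124 to 0.566 and -0.0539 to 0.239, the sign turning for regulators in Diet 5 and for spindle contigs in Diet 6. For contigs matched by wording alone the sign turned in Diets 2, 3 and 4 and the Diet 5 median ranged over 0.505 to 0.82, and on log2(CPM + 1) the Diet 6 median was -0.0131. Of the other alternatives of these medians, 1133 moved them by less than 1 SD between fish. That SD was 0.66 for regulators, 0.62 for spindle, 0.53 for replication and 0.21 for contigs matched by wording alone. It is wider than many of the medians, so this count does not show that the small ones were stable. Correlations kept sign and call in 51 of 56 alternatives. Within L tags, aurora kinase A with cyclin-D1-like turned to 0.13 in L1L8 and 0.0887 in L2L4, neither passing, and calls were lost for cyclin-B1 (0.30) and KIF20A (0.37) with aurora kinase A in L3L5 and for primase with the mitochondrial binding protein (0.68) in L1L8. The causes were not tested. Among the followers of MCM6, 5 members passed with limma (6.74% of all contigs), 5 without a filter (4.49%) and 4 without Diet 1 replicate 7 (3.82%). Depth limits contigs near 1 CPM, such as KIF13A, where few counts stand behind each fish.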

Other observations

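Of the 58 contigs that followed aurora kinase A within diets, 26 carried a name in the study's lists, and 24 of those were members of the set or other genes of the pathway. The other 2, named after the result was seen, were procollagen-lysine dioxygenase 1, a collagen-modifying enzyme, and the tail-anchored protein insertion receptor WRB, which acts at the endoplasmic reticulum.

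Dihydrofolate reductase-like followed the exocrine pancreas markers within diets with a slope of 0.20 (SE 0.06, edgeR adjusted p = 0.0441). FOXM1 was the only gene of the pathway called between L tags (edgeR adjusted p = 0.027), at 0.15, 0.47 and -0.61 log2 units from the diet means in L1L8, L2L4 and L3L5.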
